A study of Homo sapiens with 5 samples.

Results

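The 37 genes described here encode the machinery that imports proteins into the endoplasmic reticulum (ER), folds them there, senses folding stress and removes misfolded products. They were chosen with earlier results of these data known, and were matched by symbol to the gene identifiers of the count table. All 37 were found among 51055 gene IDs, and all 37 passed the filter on low counts in every comparison. They were measured in HL60, an established human cell line from promyelocytic leukaemia whose cells resemble immature granulocytes, as 5 sequencing libraries of total RNA. ZIP cells (n = 2) carried a lentivector encoding a hairpin antisense to the microRNA miR-378a-3p, SCR cells (n = 2) carried the control lentivector, and UNT cells (n = 1) were untransduced. Per the labels, both were pGreenPur lentivectors with green fluorescent protein. Transduction used polybrene (8 µg/mL) at a multiplicity of infection of 20, and puromycin (2 µg/mL) was given between day 3 and day 8. In the labels SCR is scramble in one place and an empty vector in another. SCR and UNT cells therefore differed in vector, polybrene and puromycin at once, and these cannot be told apart.

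Secreted and membrane proteins enter the ER through the SEC61 channel. Many receive glycans there, fold with the lectin chaperones calnexin and calreticulin or with the HSP70 chaperone BiP, and have their disulfide bonds set by protein disulfide isomerases. When unfolded protein accumulates, 3 sensors in the ER membrane act: IRE1 (gene ERN1) splices XBP1 mRNA, ATF6 is cleaved into a transcription factor, and PERK (gene EIF2AK3) slows translation and raises ATF4. XBP1 and ATF6 induce chaperones and the ER-associated degradation (ERAD) machinery, which returns misfolded proteins to the cytosol for the proteasome. Promyelocytes make large amounts of granule proteins such as myeloperoxidase, a glycoprotein known to bind calreticulin and calnexin while it folds.

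The libraries held 30925067 and 24406580 counts in ZIP cells, 24539092 and 24978022 counts in SCR cells and 25064771 counts in UNT cells. The annotated locus of the targeted microRNA, MIR378A, had 0 and 2 counts in ZIP cells and 0 counts in each SCR and UNT library, all under a floor of 3 counts, so it could not check the labels. Levels below are CPM, counts per library size scaled to a common total, after TMM scaling, which corrects library size for differences in composition. Of 10 promyelocyte granule genes, all of them detected, the summed level was 22339 to 22993 CPM in ZIP cells, 11932 to 11935 CPM in SCR cells and 25027 CPM in UNT cells. Of 10 monocyte and macrophage markers 9 were found. Their summed level, most of it LYZ, was 1457 to 1458 CPM in ZIP, 1340 to 1347 CPM in SCR and 355 CPM in UNT cells. The sum does not show the other markers. By the edgeR test described below, 7 of the 9 were lower and 1 higher in ZIP than in SCR. The median log2 fold change was -2.59. CD14 had 3.494 and 4.175 CPM in ZIP cells, 54.6 and 53.5 CPM in SCR cells and 2.09 CPM in UNT cells. The 8 interferon response genes summed to 30.8 to 31.6 CPM in ZIP cells, 242 to 247 CPM in SCR cells and 15.7 CPM in UNT cells. The T and NK cell list summed to 12.9 to 13.9 CPM in ZIP cells, 21.0 to 23.3 CPM in SCR cells and 12.7 CPM in UNT cells. In each of the 5 libraries the summed level was at most 4.59 CPM for the B and plasma cell list, with MS4A1 and TNFRSF17 at 0, and at most 2.80 CPM for the epithelial and fibroblast list, with COL3A1 at 0. The granule, monocyte and interferon levels moved with the groups compared below, and their part in the results was not tested. In bulk RNA, fewer cells of a type and less RNA per cell cannot be told apart.

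ER stress genes are known for promoter elements bound by ATF6 and XBP1, and the elements found in these genes are shown because they carry that link in sequence. Promoters of 34 of the 37 genes, from 250 bases before to 50 bases after the annotated start, matched RefSeq sequences of GRCh38.p14; PDIA3, DERL1 and DERL3 did not match. The ER stress response element (ERSE: CCAAT, any 9 bases, CCACG, on either strand) was present in 7 of 34, CALR, CANX, CRELD2, ERO1B, HSP90B1, HSPA5 and XBP1. That is 20.6% of the matched genes, against 27 of 35116 promoters in all (0.0769%). ERSE-II (ATTGG, any base, CCACG, on either strand) was present in HERPUD1, HYOU1 and SDF2L1, 8.82% against 0.0541% of all promoters. The unfolded protein response element TGACGTGG, on either strand, was present in DNAJC10 and HYOU1, 5.88% against 0.729%, and in HYOU1 it overlapped an ERSE-II. In the windows printed here the strand is that of the gene, lower case is flanking sequence and capitals mark the fixed letters of the element. CALR, on chr19:12938372-12938414 (plus strand), holds its ERSE on the opposite strand at positions -225 to -207 from the annotated start. CANX lies on chr5:179698766-179698808 (plus), HSPA5 on chr9:125241379-125241421 (minus), XBP1 on chr22:28800591-28800633 (minus), HERPUD1 on chr16:56932013-56932047 (plus), SDF2L1 on chr22:21642102-21642136 (plus) and DNAJC10 on chr2:182716120-182716151 (plus).
CALR: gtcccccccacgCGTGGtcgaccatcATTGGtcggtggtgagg
CANX: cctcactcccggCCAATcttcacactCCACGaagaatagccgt
HSPA5: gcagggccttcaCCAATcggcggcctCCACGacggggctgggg
XBP1: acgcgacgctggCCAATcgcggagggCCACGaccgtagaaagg
HERPUD1: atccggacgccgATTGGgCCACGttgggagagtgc
SDF2L1: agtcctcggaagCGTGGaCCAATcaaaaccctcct
DNAJC10: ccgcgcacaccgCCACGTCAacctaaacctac
A match describes the letters in the window and is not evidence of binding. Of the 7 genes with an ERSE, 5 were higher and 0 lower in ZIP than in SCR by the edgeR test described below, with a median log2 fold change of 0.38 and a range from -0.30 (ERO1B, not called) to 1.14 (CALR). The 23 matched genes with none of the 3 elements had a median of 0.18, with 15 higher and 4 lower. Over all genes tested, 32.2% were higher and 33.2% lower. Against UNT the medians of the 2 sets lay closer together, but the calls in SCR over UNT differed. There the median was -0.15 for both. With an ERSE 0 were higher and 5 lower, in a range from -1.12 to -0.05. With none 9 were higher and 13 lower, in a range from -1.37 to 1.41. Over all genes 32.7% were higher and 32.2% lower in SCR than in UNT. In ZIP over UNT the median was 0.02 with an ERSE (3 higher, 2 lower) and 0.09 with none (12 higher, 8 lower). A link between the elements and the fold changes was not tested.

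Per kilobase of transcript, the 37 genes covered most of the range of levels in these cells. CALR averaged 1663 CPM per kb over the 5 libraries and P4HB, a protein disulfide isomerase, 1537 CPM per kb. Each lay above 99.7% of the tested genes that have a protein-coding transcript. CANX followed at 452 CPM per kb, HSP90B1 at 386 CPM per kb and SEC61A1 at 249 CPM per kb. At the low end stood ERO1B at 1.43 CPM per kb and the sensor ERN1 at 1.84 CPM per kb, above 23.6% and 25.9% of those protein-coding genes. The mRNA of CALR thus sat near the top of this scale, and that of ERN1 in its lower part. Replicates lay close together: over the 37 genes the median absolute log2 difference was 0.040 between the ZIP libraries and 0.030 between the SCR libraries, and the widest was that of ERO1B, 0.28 and 0.37. Whether the replicates came from separate cultures is not in the labels, so each p-value reflects library-to-library spread that may be technical.

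**Figure D1:**
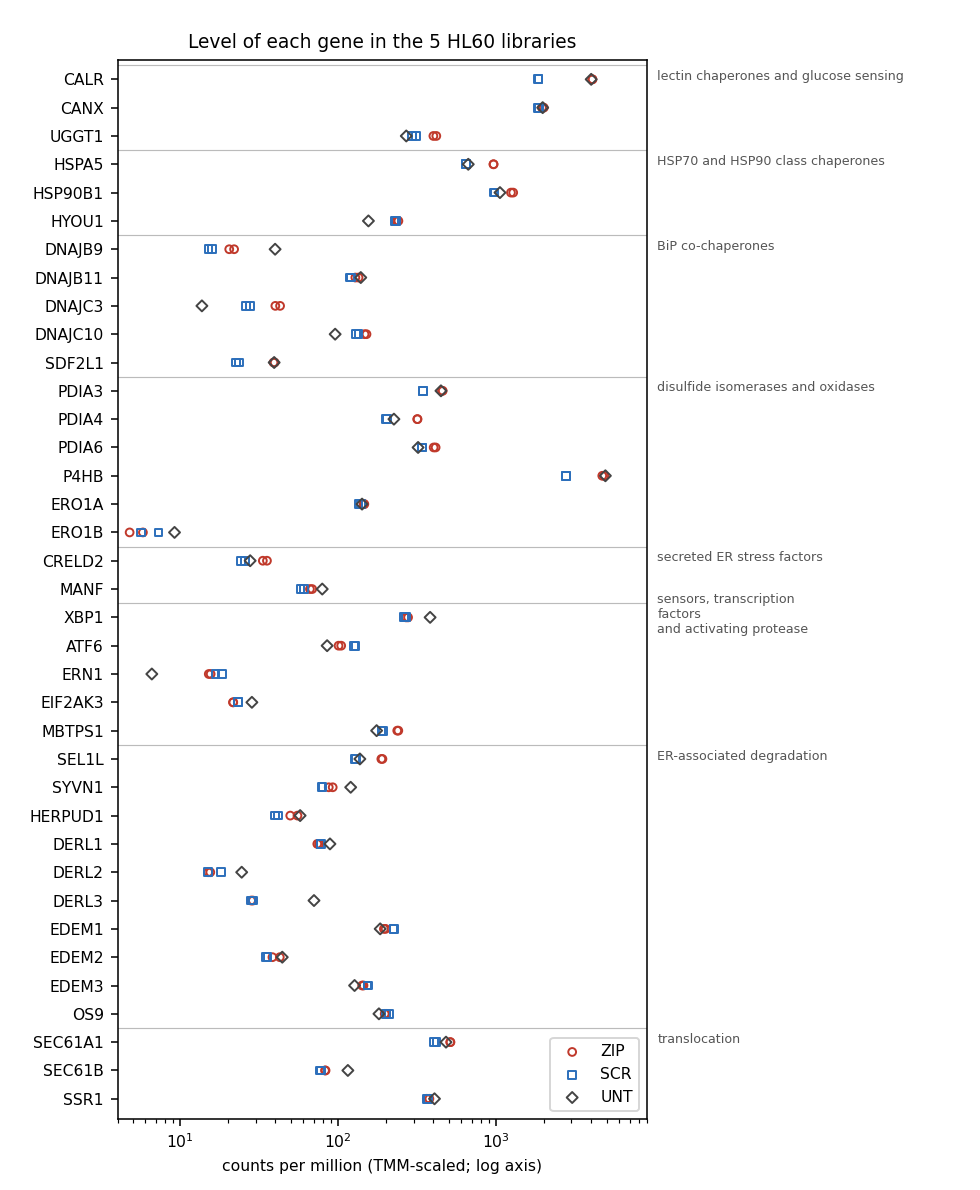
Level of each of the 37 genes in every library, in TMM-scaled CPM on a log axis, with genes grouped by role; circles are ZIP libraries (n = 2), squares SCR libraries (n = 2) and diamonds the UNT library (n = 1). CALR and P4HB stand highest with the SCR squares apart on the low side, and ERO1B and ERN1 stand lowest.

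ZIP cells were set beside SCR cells to ask how the antisense vector differed from the control vector. Of the 37 genes, 24 were higher in ZIP (64.9%), 4 were lower (10.8%) and 9 were not called, with a median log2 fold change of 0.18. Called means an adjusted p under 0.05 in edgeR's quasi-likelihood test with Benjamini-Hochberg adjustment over all genes. Over all 14643 genes tested the same rule called 65.4%, with 32.2% higher and 33.2% lower, and the median was -0.0018. Only CALR was called with at least a 2-fold rise, against 3.13% of all genes, and 0 of the 37 were called at least 2-fold lower, against 11.0%. With library totals as the only scaling, the split was 21 higher and 8 lower. The 4 genes called lower were ATF6, ERN1, EDEM1 and EDEM3.

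Setting SCR cells beside UNT cells asked what the control transduction and selection did. Of the 37 genes 11 were higher in SCR (29.7%) and 23 were lower (62.2%), with a median log2 fold change of -0.15, against 32.7% higher, 32.2% lower and a median of 0.016 over 15832 genes, of which 64.9% were called. With library totals as the only scaling, the split of the 37 genes was 12 higher and 17 lower, where over all genes 6155 were higher and 4121 lower. CALR, DNAJB9 and DERL3 were at least 2-fold lower, against 5.86% of all genes, and ERN1 was at least 2-fold higher, against 14.5%. ZIP cells against UNT cells gave 17 genes higher (45.9%) and 12 lower (32.4%), with a median of 0.03, where 28.5% of all genes were higher, 29.7% lower and 58.2% called, with a median of 0.0015. DNAJC3 and ERN1 were at least 2-fold higher in ZIP than in UNT cells, against 8.70% of all genes, and DERL3 was at least 2-fold lower, against 5.19%. Both of these comparisons use the same single UNT library, which was assumed to vary like the others, so their values are given side by side and are not independent of each other. ZIP over SCR and SCR over UNT likewise share the SCR libraries. A low or high SCR level moves them in opposite directions, so they are not separate results.

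**Figure D2:**
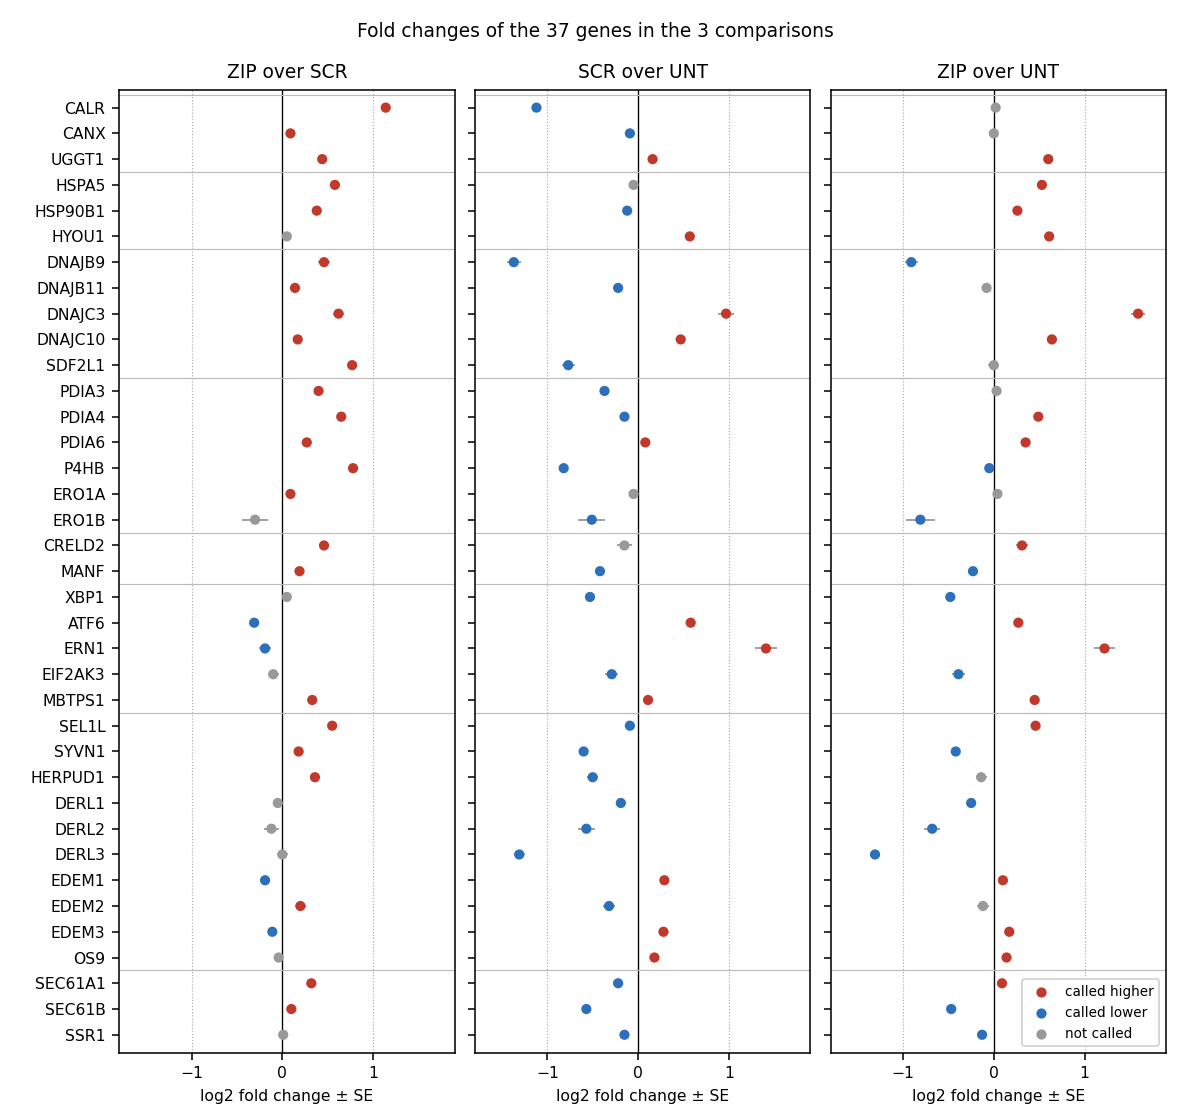
Log2 fold change of each gene with its standard error, in ZIP over SCR (n = 2 and 2), SCR over UNT (n = 2 and 1) and ZIP over UNT (n = 2 and 1), with lines separating role groups; red is called higher, blue called lower and grey not called by edgeR. Most points lie right of 0 in ZIP over SCR, and most lie left of 0 in SCR over UNT.

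Lectin chaperones bind the trimmed glycans of folding glycoproteins. Calreticulin, the soluble lectin chaperone and calcium store encoded by CALR (ENSG00000179218, GRCh38 chromosome 19, 12938578 to 12944489, plus strand), had 4074 and 4062 CPM in ZIP cells, 1832 and 1852 CPM in SCR cells and 3999 CPM in the UNT library. The SCR libraries stood apart on the low side, and the ZIP libraries lay just above UNT. The low level of CALR in SCR was known from these data when the genes were chosen, so its p-values are no independent test. In ZIP over SCR the log2 fold change was 1.14 ± 0.01 (SE), which is 2.21-fold (edgeR adjusted p = 8.6e-23). SCR over UNT gave -1.12 ± 0.01 (edgeR adjusted p = 8.7e-25) and ZIP over UNT gave 0.02 ± 0.02 (edgeR adjusted p = 0.166). CALR was called higher in ZIP than in UNT with library totals as scaling, at a log2 fold change of 0.08 (edgeR adjusted p = 1.3e-04), and without the second ZIP replicate, at 0.04 (edgeR adjusted p = 0.0241).

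Calnexin, the membrane-bound partner of calreticulin encoded by CANX, had 1951 and 2003 CPM in ZIP cells, 1864 and 1842 CPM in SCR cells and 1971 CPM in the UNT library. Its difference between ZIP and SCR was called but small, at a log2 fold change of 0.09 ± 0.02 (SE; edgeR adjusted p = 4.6e-05), and was lost with library totals, at 0.034 (edgeR adjusted p = 0.0777). The ratio of CALR to CANX was 2.09 and 2.03 in ZIP cells, 0.983 and 1.005 in SCR cells and 2.03 in UNT cells, so of the 2 lectin chaperones the soluble one carried the difference. UGGT1, which puts a glucose back on misfolded glycoproteins so that the lectins hold them again, had 400.3 and 418 CPM in ZIP cells, 293 and 311 CPM in SCR cells and 269.5 CPM in the UNT library. ZIP stood above both other groups for UGGT1, with log2 fold changes of 0.44 ± 0.03 over SCR (edgeR adjusted p = 7.9e-11) and 0.60 ± 0.04 over UNT (edgeR adjusted p = 3.7e-12).

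BiP, the central HSP70 chaperone of the ER and the repressor of its stress sensors, is encoded by HSPA5 (ENSG00000044574, GRCh38 chromosome 9, 125234853 to 125241330, minus strand). It had 962 and 962 CPM in ZIP cells, 644 and 645 CPM in SCR cells and 666 CPM in the UNT library. The ZIP libraries stood alone on the high side, unlike those of CALR, with a log2 fold change of 0.58 ± 0.02 (SE) over SCR (edgeR adjusted p = 2.0e-15) and 0.53 ± 0.03 over UNT (edgeR adjusted p = 2.5e-14). SCR over UNT was -0.05 ± 0.02 (edgeR adjusted p = 0.0992). That value turned to 0.06 and was called with library totals as scaling (edgeR adjusted p = 0.0331).

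HSP90B1, the HSP90 of the ER, also called GRP94, had 1241 and 1282 CPM in ZIP cells, 962 and 976 CPM in SCR cells and 1057 CPM in the UNT library. Its log2 fold changes were 0.38 ± 0.02 (SE) in ZIP over SCR (edgeR adjusted p = 1.1e-12), -0.12 ± 0.02 in SCR over UNT (edgeR adjusted p = 7.7e-05) and 0.26 ± 0.02 in ZIP over UNT (edgeR adjusted p = 4.3e-09). The call in SCR over UNT was lost with library totals. HYOU1, a large HSP70 relative that acts as a nucleotide exchange factor for BiP, had 240.3 and 235 CPM in ZIP cells and 227 and 233 CPM in SCR cells, against 155 CPM in the UNT library. Here both transduced groups lay above UNT, by 0.57 ± 0.04 for SCR (edgeR adjusted p = 3.7e-12) and 0.61 ± 0.04 for ZIP (edgeR adjusted p = 1.6e-12). ZIP over SCR was 0.05 ± 0.03 for HYOU1 (edgeR adjusted p = 0.157), and -0.01 with library totals.

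All 5 co-chaperones of BiP were higher in ZIP than in SCR cells, with log2 fold changes between 0.14 and 0.77, yet against UNT they went in different directions. DNAJB9, an ERAD-linked J protein that keeps IRE1 inactive through BiP, had 21.9 and 20.4 CPM in ZIP cells, 15.1 and 15.8 CPM in SCR cells and 39.8 CPM in the UNT library. Both transduced groups lay below UNT, with SCR lower than ZIP. ZIP over SCR was 0.46 ± 0.07 (SE; edgeR adjusted p = 9.1e-06), SCR over UNT -1.37 ± 0.08 (edgeR adjusted p = 2.2e-13) and ZIP over UNT -0.91 ± 0.07 (edgeR adjusted p = 1.9e-10).

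DNAJC3, known as p58IPK, a J protein of the ER lumen and an inhibitor of PERK, ran the other way. It had 39.9 and 42.8 CPM in ZIP cells, 26.1 and 27.4 CPM in SCR cells and 13.7 CPM in the UNT library. The 3 groups were in the order ZIP, SCR, UNT with no overlap. ZIP was 3.01-fold above UNT, a log2 fold change of 1.59 ± 0.08 (SE; edgeR adjusted p = 1.4e-13), and 0.62 ± 0.06 above SCR (edgeR adjusted p = 3.7e-09). SCR over UNT was 0.97 ± 0.09 (edgeR adjusted p = 1.8e-09), and passed 2-fold with library totals and without the first SCR replicate.

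DNAJC10, an ER reductase with a J domain, had 151 and 147 CPM in ZIP cells, 134 and 130.2 CPM in SCR cells and 95.5 CPM in the UNT library. It shared the order of DNAJC3, at smaller size: 0.17 ± 0.03 (SE) in ZIP over SCR (edgeR adjusted p = 3.3e-05) and 0.47 ± 0.04 in SCR over UNT (edgeR adjusted p = 4.8e-10). SDF2L1, which works with ER J proteins to limit aggregation, instead was lowest in SCR and nearly level in ZIP and UNT, with 39.5 and 38.9 CPM in ZIP cells, 22.5 and 23.5 CPM in SCR cells and 39.2 CPM in the UNT library. Its log2 fold change was 0.77 ± 0.05 in ZIP over SCR (edgeR adjusted p = 1.3e-10) and -0.77 ± 0.07 in SCR over UNT (edgeR adjusted p = 8.3e-10). DNAJB11, another BiP co-chaperone, had 128 and 134 CPM in ZIP cells, 119.7 and 118 CPM in SCR cells and 139 CPM in the UNT library.

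Disulfide isomerases and the oxidases that recharge them made up 6 genes, of which 5 were higher in ZIP than in SCR cells (4 higher and 1 lower with library totals) and 4 were lower in SCR than in UNT cells (3 with library totals). P4HB (ENSG00000185624, GRCh38 chromosome 17, 81843159 to 81860694, minus strand), the main isomerase PDI and also a subunit of prolyl 4-hydroxylase, had 4835 and 4701 CPM in ZIP cells, 2772 and 2782 CPM in SCR cells and 4919 CPM in the UNT library. As for CALR, the SCR libraries stood apart below the other 3. ZIP over SCR was 0.78 ± 0.01 (SE; edgeR adjusted p = 5.6e-20) and SCR over UNT -0.82 ± 0.02 (edgeR adjusted p = 4.2e-22). ZIP over UNT was -0.05 ± 0.02 (edgeR adjusted p = 0.0156), a call that was lost under 6 alternatives, among them leaving out either SCR replicate or the second ZIP replicate (edgeR adjusted p between 0.154 and 0.291), and that reached 0.01 with library totals.

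PDIA4, a larger isomerase, had 318 and 316 CPM in ZIP cells, 204 and 201 CPM in SCR cells and 225 CPM in the UNT library. PDIA6, which also switches off IRE1 and PERK, had 414 and 402 CPM in ZIP cells, 338 and 339 CPM in SCR cells and 320.2 CPM in the UNT library. For both, ZIP lay above SCR and UNT alike, with log2 fold changes over SCR of 0.65 ± 0.03 (SE) for PDIA4 (edgeR adjusted p = 2.6e-14) and 0.27 ± 0.03 for PDIA6 (edgeR adjusted p = 1.6e-08). PDIA3, the isomerase that partners calreticulin and calnexin, had 454 and 458 CPM in ZIP cells, 345 and 346 CPM in SCR cells and 447 CPM in the UNT library. It had the order of CALR at smaller size, 0.40 ± 0.02 in ZIP over SCR (edgeR adjusted p = 1.4e-11); it also has 2 named pseudogenes, PDIA3P1 and PDIA3P2, so its counts are uncertain.

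Of the oxidases, ERO1A had 145 and 146 CPM in ZIP cells, 139 and 134 CPM in SCR cells and 141 CPM in the UNT library, a range narrower than that of any isomerase named above. Its call of 0.09 ± 0.03 (SE) in ZIP over SCR (edgeR adjusted p = 0.00826) was lost with library totals, with DESeq2 and without the second SCR replicate (edgeR adjusted p = 0.136). ERO1B, its low-abundance relative, had 4.77 and 5.79 CPM in ZIP cells, 5.64 and 7.27 CPM in SCR cells and 9.18 CPM in the UNT library. The ZIP and SCR libraries overlapped for ERO1B, and ZIP over SCR was -0.30 ± 0.14 (edgeR adjusted p = 0.0624). That difference was called in the fit with a replicate block (edgeR adjusted p = 0.0436), with library totals (edgeR adjusted p = 0.0278), without the first SCR replicate (edgeR adjusted p = 0.00482) and without the second ZIP replicate (edgeR adjusted p = 0.0241).

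MANF and CRELD2 are ER stress-induced luminal proteins that cells can secrete. MANF had 68.3 and 66.1 CPM in ZIP cells, 60.3 and 57.6 CPM in SCR cells and 79.1 CPM in the UNT library. UNT was highest and SCR lowest, with log2 fold changes of 0.19 ± 0.04 (SE) in ZIP over SCR (edgeR adjusted p = 2.2e-04) and -0.42 ± 0.05 in SCR over UNT (edgeR adjusted p = 3.3e-08). CRELD2 had 35.3 and 33.3 CPM in ZIP cells, 25.7 and 24.2 CPM in SCR cells and 27.6 CPM in the UNT library, so here ZIP was highest, by 0.46 ± 0.06 over SCR (edgeR adjusted p = 5.8e-07).

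The sensors did not move with the chaperones between ZIP and SCR. ATF6 (GRCh38 chromosome 1, 161766294 to 161964070, plus strand) had 100.4 and 104 CPM in ZIP cells, 126 and 128 CPM in SCR cells and 84.97 CPM in the UNT library. SCR was highest and UNT lowest without overlap, with log2 fold changes of -0.31 ± 0.03 (SE) in ZIP over SCR (edgeR adjusted p = 1.2e-08), 0.58 ± 0.04 in SCR over UNT (edgeR adjusted p = 9.5e-12) and 0.27 ± 0.04 in ZIP over UNT (edgeR adjusted p = 5.3e-06). MBTPS1, the site-1 protease that cleaves ATF6 in the Golgi, had 240.0 and 236 CPM in ZIP cells, 188 and 191 CPM in SCR cells and 175 CPM in the UNT library. It was higher in ZIP than in SCR by 0.33 ± 0.03 (edgeR adjusted p = 1.9e-09), opposite in sign to its substrate.

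ERN1, encoding IRE1, had 15.1 and 15.5 CPM in ZIP cells, 16.7 and 18.4 CPM in SCR cells and 6.59 CPM in the UNT library. Both transduced groups lay above UNT, by a log2 fold change of 1.41 ± 0.12 (SE) in SCR (edgeR adjusted p = 2.9e-10) and 1.22 ± 0.12 in ZIP (edgeR adjusted p = 7.9e-09). The lower level in ZIP than in SCR, -0.19 ± 0.07 (edgeR adjusted p = 0.0286), was lost without the second SCR replicate and without either ZIP replicate (edgeR adjusted p between 0.0503 and 0.27), and with DESeq2 (adjusted p = 0.287).

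XBP1, the transcription factor whose mRNA IRE1 splices, had 277 and 269 CPM in ZIP cells, 268 and 261 CPM in SCR cells and 382 CPM in the UNT library. Both transduced groups lay below UNT, and the ZIP libraries lay just above the SCR libraries without overlap, with log2 fold changes over UNT of -0.53 ± 0.03 (SE) in SCR (edgeR adjusted p = 1.8e-12) and -0.48 ± 0.03 in ZIP (edgeR adjusted p = 1.6e-11). ZIP over SCR was 0.05 ± 0.03 (edgeR adjusted p = 0.151), and -0.01 with library totals. Gene counts do not separate spliced from unspliced XBP1. There is also a named pseudogene, XBP1P1, so the counts of XBP1 are uncertain. EIF2AK3, encoding PERK, had 21.6 and 21.5 CPM in ZIP cells, 23.2 and 23.1 CPM in SCR cells and 28.4 CPM in the UNT library. ZIP over SCR was -0.10 ± 0.06 for EIF2AK3 (edgeR adjusted p = 0.16), a difference called only with library totals among the alternatives run (edgeR adjusted p = 0.0282), and SCR over UNT was -0.29 ± 0.07 (edgeR adjusted p = 0.00121), a call lost with DESeq2 (adjusted p = 0.0927).

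**Figure D3:**
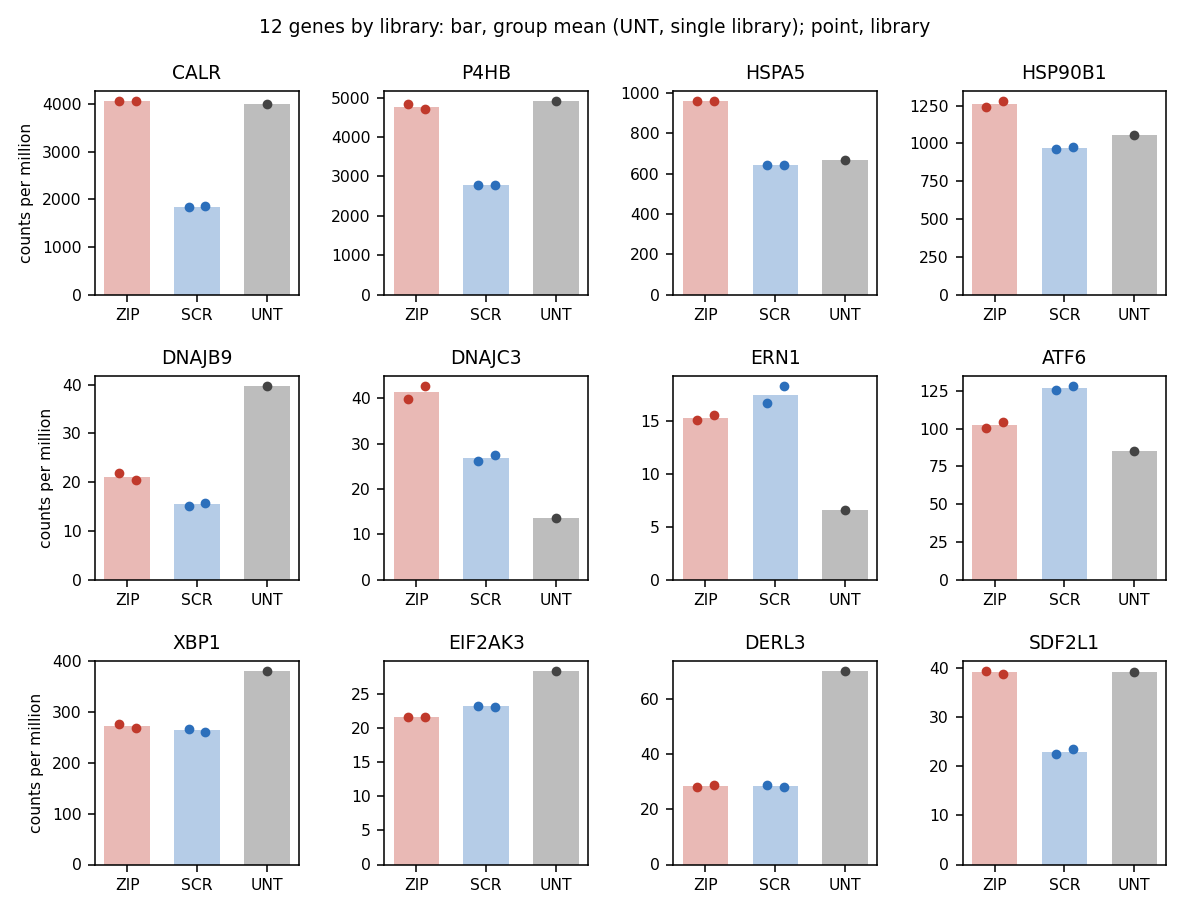
CPM of 12 genes, with bars for group means, starting at 0, and points for libraries, in ZIP (n = 2), SCR (n = 2) and UNT (n = 1) cells. CALR, P4HB and SDF2L1 are low in SCR and nearly level in ZIP and UNT, HSPA5 is high in ZIP, ERN1 and DNAJC3 are lowest in UNT, and XBP1 and DERL3 are highest in UNT.

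The ERAD genes went in different directions. EDEM1, EDEM2 and EDEM3 trim mannose from misfolded glycoproteins, and OS9 is a lectin that reads the trimmed glycan. EDEM1 had 194 and 199 CPM in ZIP cells, 226 and 224 CPM in SCR cells and 184 CPM in the UNT library. SCR stood highest, with log2 fold changes of -0.19 ± 0.03 (SE) in ZIP over SCR (edgeR adjusted p = 4.6e-06) and 0.29 ± 0.04 in SCR over UNT (edgeR adjusted p = 2.0e-07). EDEM3 and OS9 had the same order of group means, with 142 and 144 CPM in ZIP, 153 and 155 CPM in SCR and 127 CPM in UNT for EDEM3. EDEM2 had 42.6 and 38.3 CPM in ZIP cells, 34.9 and 35.6 CPM in SCR cells and 44.2 CPM in the UNT library, so its SCR libraries were lowest. The calls of EDEM2 and EDEM3 in ZIP over SCR, 0.20 ± 0.06 and -0.11 ± 0.03 by edgeR, were lost with DESeq2 (adjusted p = 0.0724 and 0.0534), and that of EDEM2 also without the first ZIP replicate (edgeR adjusted p = 0.112).

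SEL1L and SYVN1 form the core of the HRD1 ubiquitin ligase, of which SYVN1 is the catalytic subunit. SEL1L had 190.4 and 187 CPM in ZIP cells, 129 and 128 CPM in SCR cells and 137 CPM in the UNT library. SYVN1 had 87.0 and 92.2 CPM in ZIP cells, 78.3 and 79.5 CPM in SCR cells and 119.8 CPM in the UNT library. Within one complex the levels thus peaked in different groups, SEL1L in ZIP and SYVN1 in UNT, with ZIP over SCR at 0.55 ± 0.03 (SE) for SEL1L (edgeR adjusted p = 7.8e-13) and 0.18 ± 0.03 for SYVN1 (edgeR adjusted p = 1.1e-04). SYVN1 shares 398 exon bases with FAU on the same strand and 356 with MRPL49 on the opposite one, so its counts are uncertain. HERPUD1, a small membrane protein that joins the HRD1 ligase, had 49.6 and 55.1 CPM in ZIP cells, 39.7 and 41.4 CPM in SCR cells and 57.3 CPM in the UNT library.

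Derlins are membrane proteins that help pull substrates out of the ER. None of the 3 was called between ZIP and SCR, and all 3 were lower in both transduced groups than in UNT, though DERL1 in SCR over UNT was not called with library totals (edgeR adjusted p = 0.0757). DERL3 had 28.0 and 28.8 CPM in ZIP cells, 28.9 and 27.9 CPM in SCR cells and 70.2 CPM in the UNT library. Its log2 fold change was -1.31 ± 0.06 (SE) in SCR over UNT (edgeR adjusted p = 3.8e-15) and -1.31 ± 0.06 in ZIP over UNT (edgeR adjusted p = 6.5e-15). DERL3 is uncertain, because 2923 of its 3796 exon bases lie opposite SMARCB1 exons and the use of strand in counting is unknown here. SMARCB1 had 3406 and 2767 counts in ZIP, 2216 and 2273 counts in SCR and 2662 counts in UNT. DERL1 had 73.6 and 75.5 CPM in ZIP cells, 77.2 and 77.5 CPM in SCR cells and 88.6 CPM in the UNT library. DERL2 had 15.02 and 15.5 CPM in ZIP cells, 14.98 and 18 CPM in SCR cells and 24.4 CPM in the UNT library. Between ZIP and SCR, DERL1 was called lower with library totals (edgeR adjusted p = 0.00685) and DERL2 was called lower without the first SCR replicate (edgeR adjusted p = 0.0232).

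SEC61A1 encodes the pore of the import channel. It had 513 and 512 CPM in ZIP cells, 419 and 406 CPM in SCR cells and 481 CPM in the UNT library. SCR was lowest, with log2 fold changes of 0.32 ± 0.03 (SE) in ZIP over SCR (edgeR adjusted p = 7.4e-10) and -0.22 ± 0.03 in SCR over UNT (edgeR adjusted p = 6.7e-07). SEC61B, a small subunit of the same channel, had 83.1 and 82.4 CPM in ZIP cells, 77.8 and 76.7 CPM in SCR cells and 115.0 CPM in the UNT library. Both transduced groups lay below UNT for SEC61B, by -0.57 ± 0.04 in SCR (edgeR adjusted p = 6.7e-12) and -0.47 ± 0.04 in ZIP (edgeR adjusted p = 2.6e-10). SSR1, a subunit of the translocon-associated TRAP complex, had 364 and 378 CPM in ZIP cells, 370 and 366 CPM in SCR cells and 407 CPM in the UNT library, and it too has 2 named pseudogenes.

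Summed over all 37 genes, the level was 18156 and 18130 CPM in ZIP cells, 12500 and 12531 CPM in SCR cells and 17325 CPM in the UNT library. CALR and P4HB made up 49.1% and 48.3% of the genes' counts in ZIP cells, 36.8% and 36.98% in SCR cells and 51.5% in UNT cells. Without those 2 genes the sums were 9247 and 9367 CPM in ZIP cells, 7896 and 7897 CPM in SCR cells and 8407 CPM in the UNT library. With TMM scaling SCR thus remained lowest, with a smaller gap. By library totals alone, the SCR libraries lay slightly above UNT in this sum without CALR and P4HB, so that order depends on the scaling. MPO, the most abundant granule gene and a client of the lectin chaperones, had 17049 and 16584 CPM in ZIP cells, 9968 and 9989 CPM in SCR cells and 19019 CPM in the UNT library. Its order of groups differed from that of CALR in that UNT was highest, with log2 fold changes of 0.75 ± 0.01 (SE) in ZIP over SCR (edgeR adjusted p = 6.6e-22) and -0.18 ± 0.01 in ZIP over UNT (edgeR adjusted p = 2.1e-12). UNT was nearer to ZIP than to SCR for 22 of the 37 genes (59.5%), against 58.5% of all 15832 genes tested, so in this the genes were near the background.

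The same pathways hold further genes, which were taken as 8 lists of 150 genes in all. Of 143 tested in ZIP against SCR, 66 were higher (46.2%) and 51 lower (35.7%), with a median log2 fold change of 0.06. Over all genes tested, 32.2% were higher and 33.2% lower, so the share of lower genes was near the background. Counts of single lists are to be read against these shares, and those against UNT against the shares given earlier. Disulfide and prolyl isomerases outside the 37 had 13 of 18 higher and 2 lower in ZIP than in SCR (median 0.22), and 4 higher and 10 lower in SCR than in UNT (median -0.26; 6 and 9 with library totals). PDIA5, an isomerase of that list, had 76.7 and 76.4 CPM in ZIP cells, 42.9 and 40.0 CPM in SCR cells and 90.0 CPM in the UNT library, with SCR apart on the low side. Lectin and glycan processing genes had 6 of 11 higher and 3 lower in ZIP than in SCR. Its glucose-binding lectin MLEC had 427 and 418 CPM in ZIP cells, 243 and 233 CPM in SCR cells and 431 CPM in the UNT library, the same order of levels as P4HB. CLGN, MAN1A1 and FKBP9 of these lists, at most 2.99 CPM in any library, went the other way between ZIP and SCR. Their log2 fold changes there were -1.39, -0.62 and -1.60, and CLGN and FKBP9 were higher in SCR than in UNT. TXNDC5 was higher in ZIP than in SCR (0.69) and higher in SCR than in UNT (0.49).

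Oligosaccharyltransferase subunits, which attach glycans to nascent proteins, were lower in SCR than in UNT for 11 of 11 tested (8 of 11 with library totals), with a median of -0.32. In ZIP against UNT 8 of 11 were lower and none higher (1 higher with library totals), with a median of -0.29, and in ZIP against SCR 6 were higher and 1 lower (5 and 3 with library totals). Translocon and signal peptidase genes had 3 of 22 higher and 15 lower, both in SCR and in ZIP against UNT, with medians of -0.24 and -0.27. Between ZIP and SCR those genes had 10 higher and 7 lower. Genes of the COPII coat, which carries folded cargo out of the ER, had 11 of 17 higher and 4 lower in ZIP than in SCR. Further ERAD genes were balanced, with 12 of 28 higher and 12 lower. Further genes of unfolded protein response signalling and BiP cofactors had 7 of 18 higher and 5 lower in ZIP than in SCR (median 0.05). Against UNT they had 6 of 19 higher and 7 lower in SCR (median -0.05), and 5 higher and 7 lower in ZIP (median -0.05).

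Between ZIP and SCR, most targets and partners of PERK and ATF4 went the other way from most chaperones. Of 18 such genes 17 were lower and 1 higher in ZIP than in SCR, with a median log2 fold change of -0.94, and 15 were higher and 2 lower in SCR than in UNT, with a median of 0.93. In ZIP over UNT the list was mixed, with a median log2 fold change of 0.07. There ATF3 stood at 2.30 and PPP1R15A at 2.05, whereas CHAC1 stood at -1.74 and NFE2L2 at -1.34. ATF4 itself, the transcription factor of this branch, had 356 and 348 CPM in ZIP cells, 467 and 462 CPM in SCR cells and 334 CPM in the UNT library. CHAC1, a glutathione-degrading enzyme induced by ATF4, had 1.04 and 0.827 CPM in ZIP cells, 7.68 and 7.07 CPM in SCR cells and 3.17 CPM in the UNT library. ZIP was lowest and SCR highest for CHAC1, with a log2 fold change of -2.95 ± 0.18 (SE; edgeR adjusted p = 8.4e-12). TRIB3, a pseudokinase induced by ATF4, had 50.4 and 50.6 CPM in ZIP cells, 102.9 and 106 CPM in SCR cells and 58.0 CPM in the UNT library. DDIT3, encoding the stress factor CHOP, had 11.3 and 9.71 CPM in ZIP cells, 15.7 and 16.5 CPM in SCR cells and 15.8 CPM in the UNT library. Several of the 18 genes also answer to other stresses or to differentiation: CEBPB, a myeloid transcription factor, had 33.4 and 33.0 CPM in ZIP cells, 115 and 113 CPM in SCR cells and 56.4 CPM in the UNT library, and TNFRSF10B, a death receptor, had 38.8 and 36.7 CPM in ZIP cells, 99.4 and 93.8 CPM in SCR cells and 28.0 CPM in the UNT library. The summed interferon level given above was likewise highest in SCR cells, and 7 of the 9 monocyte markers found were lower in ZIP than in SCR cells; their part in this was not tested.

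**Figure D4:**
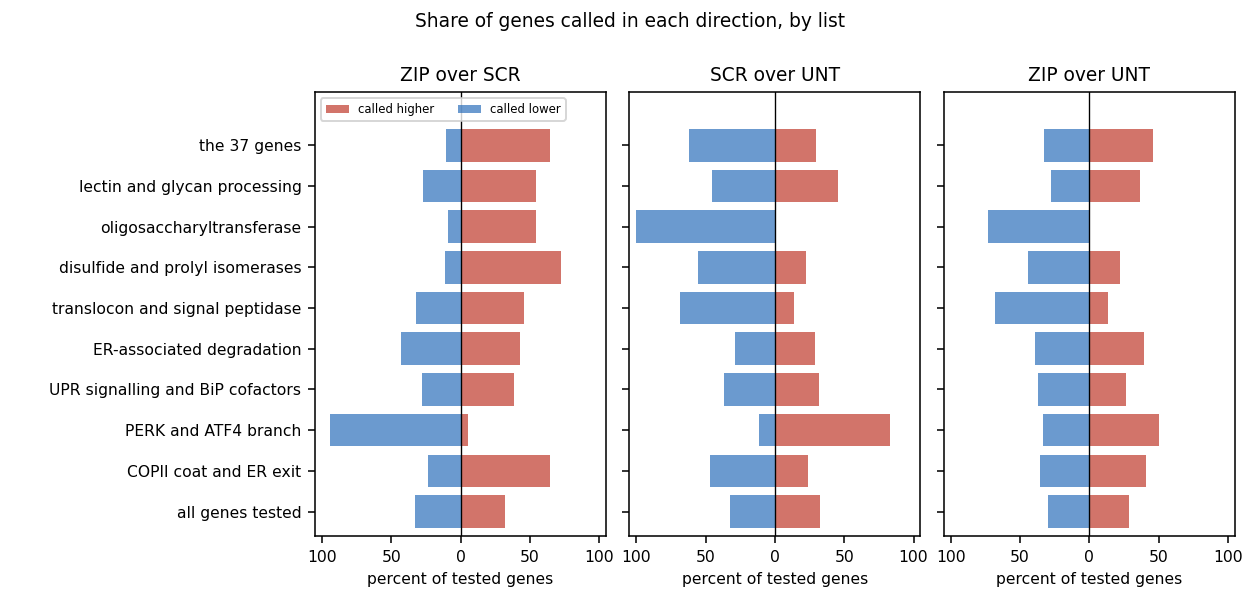
Percent of tested genes called higher (right of 0) and lower (left of 0) by edgeR in the 37 genes, in 8 lists of related genes and in all genes tested, for ZIP over SCR, SCR over UNT and ZIP over UNT. In ZIP over SCR the bar of called lower genes is longest for the PERK and ATF4 list, at 94.4%, against 10.8% for the 37 genes.

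The antisense vector targets miR-378a-3p, so the 37 genes were searched for its seed match, the letters AGTCCAG that pair with bases 2 to 8 of the microRNA. The mature sequence (RefSeq, GRCh38.p14, chr5:149732867-149732888, plus strand) is shown with its seed in capitals, and below it the match, in capitals, within each 3′ untranslated region (UTR) of the principal GENCODE 29 transcript that held one.
miR-378a-3p: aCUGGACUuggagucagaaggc
HSPA5: gttcctgaagaaaagAGTCCAGgtaaa
DNAJC10: ttatccataagcagtAGTCCAGaaaac
PDIA4: atgactgaatagtttAGTCCAGatttt
ATF6: agtatggatggtctaAGTCCAGtaggg
EDEM1: cccagaccatgccaaAGTCCAGtctga
These were 5 of the 37 genes (13.5%), against 1291 of 11896 tested genes with a 3′ UTR (10.9%). Of the 5 genes, HSPA5, DNAJC10 and PDIA4 were higher in ZIP than in SCR, and ATF6 and EDEM1 were lower. The median log2 fold change in ZIP over SCR was 0.17 for the 5 with a match and 0.19 for the 32 without, and -0.03 and -0.01 over all genes. CALR held no match in its 576 bases. A match does not show that a site is used.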

How the data were processed

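HL60 RNA was measured in 2 ZIP, 2 SCR and 1 UNT libraries. The deposited values are raw counts per gene without normalization, read from the values themselves (whole numbers with unequal totals). Bowtie2 and featureCounts appear in the submitters' processing notes, whereas the design text of the series lists CASAVA 1.8.2, TopHat 2, Cufflinks, HTSeq, Cuffdiff and MultiRankSeq. The tools behind these counts, and their genome build, annotation and strand setting, are not given in the sources. Per the labels, libraries were made with a kit for small RNA. Genes counted across overlapping exons (21 of the 37 share exon bases with another annotated gene) are less certain.

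Gene IDs were matched to GENCODE 29 (GRCh38), whose coordinates are given: 44305 of 51055 had a symbol, and 6750 without one stayed in the tests. The filter on low counts was filterByExpr (count of at least 10, total of at least 15). Counts were TMM-scaled and tested in R 4.3.3 with edgeR 4.0.16 (quasi-likelihood, Benjamini-Hochberg over all genes, 0.05), with 2 residual degrees of freedom. ZIP against SCR used those 4 libraries, and comparisons with UNT used all 5. The standard error is the log2 fold change divided by the square root of F. Alternatives were DESeq2 1.42.0 size factors and Wald test, library totals, no filter, other libraries in the fit, a replicate block and leaving out each library. Replicates differed by a mean chi-square per gene of 1.79 (ZIP) and 2.47 (SCR), where counting noise gives 1, against 77.3 to 134 between groups, and were kept as separate libraries. The fit was tested on simulated data, with 14271 genes passing the filter in ZIP against SCR. Of genes changed 2-fold 87% were recovered there, and of genes changed by a log2 of 0.5, 74.7%. At a log2 of 0.5, 69% were recovered in SCR against UNT and 65% in ZIP against UNT. Few genes were changed, equally up and down, so the simulation did not test the scaling where many genes change.

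The genes and lists were chosen with earlier results of these data known. Library values are given for genes past 2-fold in any comparison, for CALR, HSPA5, XBP1, ATF6, ERN1 and EIF2AK3 and for the highest gene of each role; other genes named, and the seed match search, were chosen after values were seen. Levels per kb use the principal GENCODE transcript (longest coding sequence).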

Additional observations from a re-analysis of the deposited data

How the results depend on the processing

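Counts of calls moved by more than 1.5 times in 3 results. In ZIP against SCR, 8 of the 37 genes were lower with library totals and 2 with the DESeq2 Wald test, where edgeR gave 4. In SCR against UNT, 2 genes rather than 1 were at least 2-fold higher with library totals, DNAJC3 joining ERN1. Over all genes in ZIP against UNT, 5956 were called with DESeq2 and 9211 with edgeR. Leaving out 1 library at a time gave 22 to 24 genes higher and 3 to 6 lower in ZIP against SCR, 10 to 11 higher and 21 to 23 lower in SCR against UNT, with 1 to 2 at least 2-fold higher (2 without the first SCR replicate), and 17 higher and 11 to 13 lower in ZIP against UNT. A lone library left in a group was assumed to vary like the others.

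Library totals moved the median log2 fold change of all genes by -0.06 in ZIP over SCR, 0.11 in SCR over UNT and 0.05 in ZIP over UNT. Small fold changes reversed with it: HYOU1 to -0.012, XBP1 to -0.012, DERL3 to -0.058 and SSR1 to -0.048 in ZIP over SCR; CANX to 0.021, HSPA5 to 0.062, ERO1A to 0.060 and SEL1L to 0.020 in SCR over UNT; SDF2L1 to 0.050 and P4HB to 0.0058 in ZIP over UNT. SDF2L1 in ZIP over UNT, at -0.00, also turned positive with DESeq2 size factors (0.0068), the DESeq2 Wald test (0.0014), ZIP and UNT alone (0.0056), and ranged from -0.013 to 0.019 without 1 library. Without 1 library, ZIP over SCR ranged from -0.24 to 0.023 for DERL2, from -0.024 to 0.030 for DERL3 and from -0.0059 to 0.037 for SSR1, and ZIP over UNT from -0.0054 to 0.024 for CANX. The cause of these changes was not tested. Among values of single genes, 961 kept direction and side of the threshold, 37 lost a call, 17 gained one and 21 reversed.

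Replicate numbers pair no samples by the labels: across 11361 genes, same-numbered ZIP and SCR libraries deviated together with r = 0.0518. With the numbers as a replicate block, 9709 genes were called in ZIP against SCR (9571 without), and of the 37 genes 24 were higher and 5 lower, ERO1B joining at -0.29. With 2 libraries or fewer in each group, precision is limited by the number of libraries rather than by depth, and no spread could be measured for UNT.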
